A study of Mus musculus with 7 samples.

Results

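The genes described here are 131 mouse genes whose symbol is Zfp followed by a number and that had at least 1 splicing event in the tables of both replicate numbers, out of 6701 genes with events in both. A further 20 such genes had events only in replicate number 1 and 36 only in replicate number 2, and these were left out. Cultured cortical neurons were used for RNA-seq, read as alternative splicing events, and hippocampus was used for ChIP-seq of trimethylated lysine 9 of histone H3 (H3K9me3). By its title and design, the study asked whether neuronal activity leaves late changes in splicing and in H3K9me3. The neurons were wild type, from ICR embryos at day 16 (E16), and were treated after 11 days in culture for 10 min with a buffer containing KCl (50 mM in the stated design; 2 KCl libraries) or with the same buffer containing NaCl instead (2 control libraries). RNA was taken 24 h later. The hippocampi were from wild-type C57BL/6 mice of 3 months, kept in a home cage (1 library) or placed in an enriched cage for 24 h and then returned to the home cage for 1 week (2 libraries). The labels do not say whether libraries of a group came from separate cultures or animals, so every p-value below measures the spread between these libraries, which may be technical.

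Zfp is the mouse prefix for zinc finger proteins, most of which bind DNA through arrays of C2H2 fingers. Many carry a KRAB domain, which recruits the corepressor Trim28 and the H3K9 methyltransferase Setdb1, and silence retrotransposons or, as Zfp57 does, keep the methylation of imprinted regions. KRAB zinc finger genes lie in clusters of related copies, and in many tissues H3K9me3 covers the 3′ exons of such genes, which encode the fingers. Others in the family have no KRAB domain: they are transcription factors, RNA-binding proteins or, like the LIM domain protein Zfp185, share only the name.

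The position of H3K9me3 within the gene is the pattern most visible in these data, so the promoters of the 3 members with the highest signal over the gene body are shown first, followed by those of the 2 members with the highest signal at the promoter. Each line is the 250 bases before the start that the RefSeq promoter table (GRCm38.p6) lists, 5′ to 3′ on the gene's strand, with CG dinucleotides in capitals. They lie at chr7:12834511-12834760 (plus strand, Zfp110), chr11:50916177-50916426 (minus strand, Zfp2), chr2:150136679-150136928 (minus strand, Zfp120), chr15:103340087-103340336 (minus strand, Zfp385a) and chr9:20581078-20581327 (plus strand, Zfp846).
Zfp110: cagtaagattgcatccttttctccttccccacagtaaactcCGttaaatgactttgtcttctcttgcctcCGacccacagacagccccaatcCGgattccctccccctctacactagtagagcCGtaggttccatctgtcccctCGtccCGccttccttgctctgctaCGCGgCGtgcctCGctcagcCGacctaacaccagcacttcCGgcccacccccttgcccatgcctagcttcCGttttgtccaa
Zfp2: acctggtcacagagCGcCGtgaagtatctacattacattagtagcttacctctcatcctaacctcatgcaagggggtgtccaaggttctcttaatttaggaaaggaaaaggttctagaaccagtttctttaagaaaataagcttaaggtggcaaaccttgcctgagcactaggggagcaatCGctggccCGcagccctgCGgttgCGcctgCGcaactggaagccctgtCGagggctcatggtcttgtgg
Zfp120: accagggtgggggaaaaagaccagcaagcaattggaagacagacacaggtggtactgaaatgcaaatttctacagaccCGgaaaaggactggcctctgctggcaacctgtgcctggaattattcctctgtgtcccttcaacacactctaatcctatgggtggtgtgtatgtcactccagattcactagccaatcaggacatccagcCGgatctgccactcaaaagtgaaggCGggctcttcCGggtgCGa
Zfp385a: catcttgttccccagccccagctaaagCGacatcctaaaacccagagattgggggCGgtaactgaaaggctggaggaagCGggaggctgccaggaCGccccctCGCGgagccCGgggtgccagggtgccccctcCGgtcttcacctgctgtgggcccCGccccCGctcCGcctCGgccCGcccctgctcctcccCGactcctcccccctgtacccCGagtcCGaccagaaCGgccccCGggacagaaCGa
Zfp846: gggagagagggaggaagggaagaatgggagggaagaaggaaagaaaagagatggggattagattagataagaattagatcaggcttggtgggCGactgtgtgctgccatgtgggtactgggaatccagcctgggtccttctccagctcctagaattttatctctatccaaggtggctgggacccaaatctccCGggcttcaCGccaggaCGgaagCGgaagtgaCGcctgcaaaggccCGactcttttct

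Within 1 kb either side of the start, H3K9me3 at Zfp110 was 1.36 times the background in the home cage library and 1.28 and 1.29 times in enriched replicates 1 and 2. At Zfp2 it was 0.455, 0.851 and 0.323 times, and at Zfp120 0.455, 0.426 and 0.968 times. Background means the median fragment density of a library, taken over 10 kb windows, and no input library was used here. Zfp385a, an RNA-binding protein of neurons also called Hzf, stood at 2.05, 2.13 and 2.90 times and Zfp846 at 2.05, 2.02 and 1.94 times in the same order. These windows hold few fragments: 6, 12 and 8 at Zfp110 and 9, 20 and 18 at Zfp385a. Of the 131 members, 110 had an entry in the promoter table, and their median promoter signal (the median over the 3 libraries for each member) was 0.806 times the background.

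Member promoters were rich in CG: over the 300 bases from 250 before to 50 after the start, the median number of CG dinucleotides was 16.5 in the 110 members and 7 in all 27025 promoters of the table. The printed promoter of Zfp385a holds 19 in its 250 bases and that of Zfp120 holds 5. The letters GGGCGG, the core of the GC box, were found on either strand in 56 of 110 member promoters (50.9%) and in 35.9% of all, and CCAAT in 54 (49.1%) and in 38.0%. The cyclic AMP response element TGACGTCA, which the activity-regulated factor CREB binds, was found in 4 (3.64%) and in 1.85%. None of these motifs contains another. A match describes the letters only. Members were chosen for having splicing events, while the set of all promoters includes genes without any. Promoters of other genes with events were not compared, so these differences are not shown to be particular to Zfp genes.

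H3K9me3 over most member gene bodies lay near the background, and the values ran without a gap to several times the background in the highest members. The 131 members had a median of 0.942 times the background in the home cage library, 0.879 in enriched replicate 1 and 0.994 in enriched replicate 2. At least 2 times the background was reached by 28 members (21.4%) in the home cage, 26 in enriched replicate 1 and 24 in enriched replicate 2. Among all 24372 gene models with a mean of at least 20 fragments the shares were 7.32%, 7.39% and 4.6%. Of the 28 members, 23 were also at 2 or more in both enriched libraries, and 1 of the other 103 members reached 2 in an enriched library. Just inside the threshold in the home cage were Zfp382 at 2.09 and Zfp513 at 2.10, and just outside were Zfp260 at 1.98 and Zfp950 at 1.86. These are descriptions of levels with no test, since genes are not replicates.

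**Figure D1:**
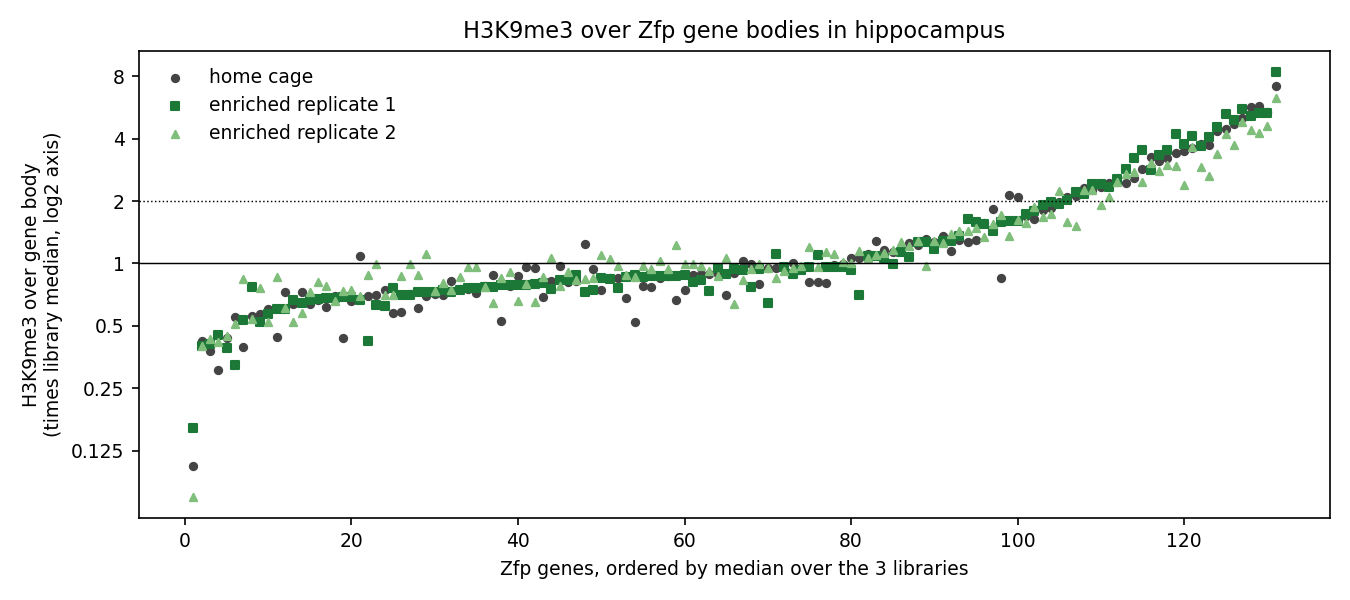
H3K9me3 over the gene bodies of the 131 Zfp genes, as fragments per kb relative to the library's background (log2 axis), with genes ordered by their median over the 3 libraries. Each gene has 1 point per library, the solid line is the background and the dotted line 2 times the background. Most genes lie around 1, and the right end climbs to Zfp110 at 6.28 to 8.39.

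The member with the highest signal was Zfp110 (chr7:12834761-12850586), a KRAB zinc finger protein also known as a neurotrophin receptor interacting factor. It stood at 7.18 times the background in the home cage (95% exact Poisson interval 6.32 to 8.13, 250 fragments), 8.39 in enriched replicate 1 (624 fragments) and 6.28 in enriched replicate 2 (308 fragments). All intervals and fragment numbers cover counting error only. Zfp369 (chr13:65277228-65304222), the related receptor-interacting protein, had 4.73, 4.92 and 3.72 times in the same order. The neighbours of Zfp110 on chromosome 7, Zfp329 and Zfp551, had 3.61, 4.11 and 3.63 times and 2.85, 3.53 and 2.47 times. On its other side, Zfp324 had 0.703, 0.633 and 0.998 times and Zfp446 0.525, 0.782 and 0.847 times. High and low members thus lie next to each other in this cluster.

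Zfp2 (chr11:50897265-50916216) had 5.35, 5.32 and 4.60 times the background, its neighbour Zfp454 had 3.26, 2.82 and 3.05 times, and Zfp354a in the same cluster had 1.27, 1.63 and 1.43 times. Zfp120 (chr2:150114407-150136678) had 5.76, 5.32 and 4.27 times, and Zfp68 (chr5:138603652-138619743) 5.68, 5.14 and 4.39 times. On chromosome 7, Zfp180 (chr7:24081877-24107709) had 5.03, 5.58 and 4.81 times and Zfp788 (chr7:41633531-41650881) 3.72, 4.06 and 2.64 times. In every library these genes other than Zfp354a lay far above the median member. On chromosome 17, Zfp763 (chr17:33016864-33033381) had 4.46, 5.28 and 4.20 times, Zfp758 (chr17:22361430-22393909) 4.35, 4.57 and 3.37 times and Zfp81 (chr17:33329342-33358896) 3.77, 3.69 and 2.93 times.

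The lowest values were those of Zfp433 (chr10:81704747-81721976), at 0.106, 0.161 and 0.0749 times the background. They rest on 4, 13 and 4 fragments, and the 95% interval in the home cage was 0.0288 to 0.270. Next came Zfp185 on the X chromosome at 0.421, 0.399 and 0.401 times, Zfp931 on chromosome 2 at 0.379, 0.408 and 0.431, Zfp449 on the X at 0.307, 0.453 and 0.418, and Zfp280c on the X at 0.437, 0.389 and 0.444. So 3 of the 5 lowest members are X-linked. The 5 members on the X had a median of 0.437, 0.399 and 0.444 times, and the 455 protein-coding gene models of the X had 0.489, 0.456 and 0.461 times. The labels do not give the sex of the mice. How reads matching more than 1 family member were placed is not given in the sources used here, so values of members with near-identical copies are uncertain.

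Members with a known role and no KRAB domain lay near or under the background. The transcription factors Zfp148, Zfp384, Zfp281, Zfp335, Zfp410, Zfp462, Zfp521 and Zfp609 ranged from 0.618 (Zfp410) to 1.11 (Zfp521) in the home cage. Over the 20 Zfp genes listed as transcription factors without a KRAB domain the medians were 0.806, 0.859 and 0.975 times, and none reached 2 in any library. Over the 12 Zfp genes listed as RNA-binding, among them Zfp106, Zfp207, Zfp326, Zfp346 and Zfp638, the medians were 0.896, 0.733 and 0.820 times, again with none at 2. The imprinting factor Zfp57 (chr17:37001163-37010729) had 0.998, 0.956 and 1.01 times. Zfp932, a KRAB protein that represses endogenous retroviruses, was the known-role member above 2, at 2.25, 2.42 and 2.27 times.

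Members with other Zfp genes nearby had the higher medians. Counting all 416 Zfp gene models of the annotation, 78 members had another Zfp start within 500 kb, and their median was 1.14, 1.07 and 1.18 times the background. The other 53 members had 0.775, 0.773 and 0.905 times. Of the 28 members at 2 or more in the home cage, 23 had such a neighbour and 5 did not (Zfp369, Zfp558, Zfp788, Zfp867 and Zfp949). Neighbouring genes are not independent, so no test is given. By chromosome, 6 of 12 members on chromosome 17, 8 of 29 on chromosome 7, 4 of 14 on chromosome 9, 3 of 10 on chromosome 5 and 3 of 9 on chromosome 11 were at 2 or more. On chromosomes 6 and 18 it was 0 of 10 and 0 of 6.

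Along the gene, H3K9me3 in the high members climbed from the start to the 3′ end. Of the 28, 26 had a strand in the promoter table. In them the mean over the first 25% of the gene body was 1.79 times the background in the home cage, 1.73 in enriched replicate 1 and 1.65 in enriched replicate 2. The mean over the last 25% was 4.96, 5.47 and 4.13 times. The last 25% was above the first 25% in all 3 libraries in 21 of the 26, and the reverse held in 0. The share was 30 of 84 among the other members with a strand, 51 of 110 (46.4%) in all and 17.6% of 12248 other protein-coding genes. The 26 were chosen by their signal over the whole gene body, which includes both ends, so the height of these means follows in part from that choice.

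**Figure D2:**
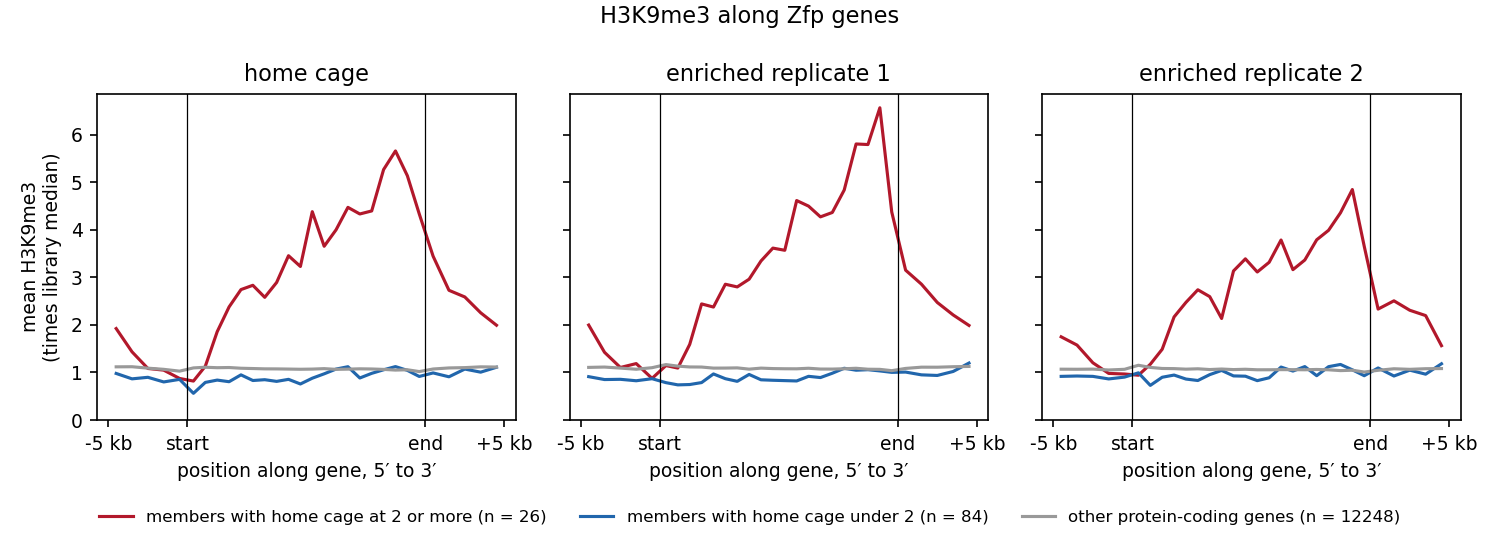
Mean H3K9me3 along the gene body in 20 bins and over 5 kb on each side, in times the library's background, for 26 Zfp members at 2 or more in the home cage, 84 other Zfp members and 12248 other protein-coding genes. In each of the 3 libraries the line of the high members starts near 1 at the gene start and peaks shortly before the gene end, while the other lines stay near 1.

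Zfp180 had the largest difference between the ends of the gene body in each library, with 2.53, 1.94 and 2.60 times the background in its first 25% and 11.8, 13.4 and 10.4 times in its last. Zfp2 went from 1.73, 1.53 and 2.11 times to 8.63, 8.76 and 7.56 times, and Zfp763 from 1.32, 1.03 and 1.41 times to 5.94, 8.19 and 6.33 times. In Zfp110 the first 25% was already high, at 4.83, 5.65 and 3.59 times, against 8.62, 10.7 and 8.32 times in the last. Zfp758 was an exception, with 4.48, 3.35 and 2.82 times in the first 25% and 3.97, 4.30 and 2.98 times in the last. Zfp931, 1 of the 5 lowest members over the whole body, had 0, 0.0710 and 0.215 times in its first 25% and 1.06, 1.21 and 1.18 times in its last.

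Enriched cage and home cage were then compared over the gene bodies to ask whether H3K9me3 differed 1 week after the enriched cage. With a single home cage library, the test takes its spread to be that of the enriched pair. Of the 122 members with a mean of at least 20 fragments, limma with voom weights called 0 after Benjamini-Hochberg adjustment over all 24372 gene models, where it also called 0 (0%). Its unadjusted p was under 0.05 in 2 members, both higher in the enriched cage, against 1.7% of all gene models (0.907% higher). The median log2 difference was 0.03 in the members and 0.01 in all, with 69 members higher and 53 lower (51.4% of all gene models were higher). Each member named here had an adjusted p of 0.9998.

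The 2 members with a small unadjusted p were Zfp30 and Zfp131. Zfp30, a KRAB zinc finger gene in a cluster on chromosome 7 (chr7:29783968-29794703), had 20 fragments without and 80 and 57 with the enriched cage, or 0.847 against 1.59 and 1.71 times the background. The log2 difference was 0.95 (SE 0.41). In its last 25% the values were 1.35 against 2.30 and 2.76 times. Zfp131 (chr13:119765186-119791477), a BTB domain zinc finger protein, had 30 fragments against 108 and 70, or 0.519 against 0.874 and 0.859 times, a log2 difference of 0.75 (SE 0.35). For both genes the enriched libraries lay above the home cage library.

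Next in the higher direction were Zfp532 (log2 difference 0.39, SE 0.20), Zfp609 (0.29, SE 0.19) and Zfp827 (0.26, SE 0.18), all 3 near the background in every library. In the lower direction stood Zfp382 (-0.35, SE 0.26), Zfp120 (-0.23, SE 0.18), Zfp141 (-0.28, SE 0.23), Zfp317 (-0.35, SE 0.30) and Zfp68 (-0.22, SE 0.20). These names are limited to members with a mean of at least 50 fragments. Below that limit, lower differences were largest in Zfp740 (-0.66, SE 0.39) and Zfp668 (-0.65, SE 0.33, limma unadjusted p = 0.050). Higher differences below it were largest in Zfp651 (0.65, SE 0.48) and Zfp446 (0.61, SE 0.48). Zfp382 had 2.09 times the background in the home cage and 1.61 and 1.62 times in the enriched libraries. Across the 131 members the log-scale values of libraries followed each other, with correlations of 0.961 and 0.937 between the home cage and each enriched library and 0.952 between the enriched libraries. The libraries share the gene lengths and local sequence behind these values.

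The RNA tables hold reads of the inclusion and skipping form of each event. The libraries had 3566066 and 5385345 such reads in control replicates 1 and 2 and 3643165 and 4666850 in KCl replicates 1 and 2. The members had 318 events in replicate number 1 and 364 in replicate number 2, of which 68 and 79 shared coordinates with another event and could not be told apart. Matching by coordinates left 205 events in 122 members, out of 11814 events in 6114 genes. The 9 members without a matched event were Zfp2, Zfp30, Zfp106, Zfp219, Zfp275, Zfp329, Zfp454, Zfp655 and Zfp961, and they have H3K9me3 values only. Member events took 0.576% and 0.765% of the matched reads in control replicates 1 and 2 and 0.662% and 0.790% in KCl replicates 1 and 2. These shares differ more between the replicate numbers than between control and KCl. Events of 1 gene share reads and are not independent.

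Of the 205 events, 146 were cassette exons, which are kept or skipped whole (71.2%, against 64.6% of all events). Another 25 were alternative 3′ splice sites, 18 alternative 5′ splice sites, 13 retained introns (6.34%, against 12.4%) and 3 mutually exclusive exons. The most events in a single member were the 6 of Zfp384, a transcription factor. A size that is a multiple of 3, which leaves the reading frame intact when the exon is skipped, was held by 49 of the 146 member cassette exons (33.6%) and by 46.4% of the 7485 of other genes. The median sizes were 124 and 115 bases, and no test was run on these sizes.

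A pair of sizes, picked after the values were seen, recurred among the members. Other sizes recurred too and were not counted. Exon sequences were not compared, so equal size does not show that the exons are related. An exon of 96 bases was the cassette in 7 member events (4.79%, against 1.03% of other cassette exons), in Zfp68, Zfp78, Zfp110, Zfp369, Zfp385a, Zfp618 and Zfp688. An exon of 61 bases was the cassette in 6 (4.11%, against 0.548%), in Zfp617, Zfp811, Zfp866, Zfp867, Zfp931 and Zfp963. Exons of 1 size were used to different degrees. Inclusion is given below as a read share, the percent of an event's reads that show the inclusion form. It is not a percent spliced in, because the effective lengths are not given. For the 96-base exon of Zfp110 (chr7:12837089-12837184) the inclusion and skipping reads were 32 and 0 in control replicate 1, 25 and 0 in control replicate 2, 32 and 2 in KCl replicate 1 and 19 and 1 in KCl replicate 2. For that of Zfp68 (chr5:138616470-138616565) they were 26 and 18, 32 and 14, 48 and 20, and 24 and 17 in the same order, so both forms were read in every library.

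The KCl libraries differed from the control libraries in the genes that mark cell types, and these values stand beside every comparison below. The neuronal markers Rbfox3, Map2, Snap25 and Syt1 (4 of 6 listed were measured) summed to 1496 and 2074 CPM (reads scaled to a common library size) in control replicates 1 and 2 and 166 and 685 in KCl replicates 1 and 2. The median log2 difference was -2.03, and no marker gene of any list passed the adjusted threshold in edgeR. Those of astrocytes (3 of 6 measured) summed to 242 and 460 against 921 and 799, those of oligodendrocytes (4 of 6) to 311 and 336 against 1974 and 1087, and those of vascular and mesenchymal cells (3 of 6) to 431 and 517 against 2902 and 2240. Progenitor markers (4 of 6) summed to 199 and 391 against 612 and 688, and 0 of 4 microglial markers were measured. The groups do not overlap in any of these sums, and the part of cell makeup in the member results was not tested. In bulk RNA, fewer cells of a type and less RNA per cell cannot be told apart.

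Whether KCl changed the splicing of members was tested in 173 events of 110 genes, those averaging 1 or more reads in each form. edgeR's quasi-likelihood test called 0 of the 173 after adjustment over all 10088 events tested, where it also called 0 (0%). DESeq2 and limma called 0 members too, while DESeq2 called 12 events over all. With a block for the replicate number, edgeR called 0 members and 167 events over all. The edgeR unadjusted p was under 0.05 in 7 member events, against 9.21% of all events. That number was 0 to 3 with 1 library left out, 1 in DESeq2 and 13 in limma. Inclusion was higher in KCl in 3 of them (4.24% of all events) and lower in 4 (4.97%). Control and KCl shares were fully separate in 65 of the 173, 32 higher and 33 lower, while this held for 40.7% of all events. The smallest adjusted p of a member in edgeR was 0.454. In the authors' deposited table, an FDR under 0.05 was held by 0 of 205 member events, against 2.89% of all 11814 in replicate number 1 and 1.29% in replicate number 2. The smallest member FDR in the authors' deposited table was 0.446 in replicate number 1 and 0.783 in replicate number 2.

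Of the events with higher inclusion in both KCl libraries, the smallest p values fell on Zfp746, also called PARIS, a KRAB repressor that parkin targets. Its 114-base exon (chr6:48082154-48082267) had 57 inclusion and 8 skipping reads in control replicate 1, 56 and 2 in control replicate 2, 68 and 1 in KCl replicate 1 and 73 and 0 in KCl replicate 2. The share was 92.1% ± 6.26 (SD, n = 2) in control and 99.3% ± 1.02 (n = 2) in KCl, with log2 odds of 3.29 (SE 1.38, edgeR adjusted p = 0.458). A second exon of the gene, of 82 bases (chr6:48083093-48083174), had 2 skipping reads in each control library and 0 in each KCl library, beside 37, 31, 55 and 22 inclusion reads. A few skipping reads carry both differences. In Zfp719 (chr7:43584068-43584296) the skipping reads were likewise 2 and 2 in control and 0 and 0 in KCl, and in Zfp236 (chr18:82617710-82617889) 1 and 3 against 0 and 0. The 82-base exon, Zfp719 and Zfp236 met the minimum mean of 1 skipping read through the control libraries alone. The 114-base exon met it mainly through the control libraries. Their separation therefore follows in part from that filter.

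At lower coverage, the alternative 5′ splice site of Zfp202 (chr9:40207199-40207694), a SCAN and KRAB domain repressor, had inclusion shares of 25% and 46.7% in control and 77.8% and 75% in KCl, from 8 to 24 reads per library. The means were 35.8% ± 15.3 and 76.4% ± 1.96 (SD, n = 2 each; edgeR adjusted p = 0.563). The alternative 3′ site of Zfp426 (chr9:20474907-20475075) had 0 inclusion reads of 6 and of 26 in control and 3 of 12 and 1 of 20 in KCl. The Zfp426 event met the minimum mean of 1 inclusion read through the KCl libraries alone. Neither passed the test.

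Lower inclusion in both KCl libraries was seen in a 606-base exon of Zfp644 (chr5:106634831-106635436), a partner of the H3K9 methyltransferases G9a and GLP. The skipping reads were 2 of 274 and 6 of 562 in control and 7 of 191 and 17 of 465 in KCl. The share was 99.1% ± 0.239 in control and 96.3% ± 0.00637 in KCl (SD, n = 2 each), with log2 odds of -1.98 (SE 0.82, edgeR adjusted p = 0.454). In Zfp839 (chr12:110866240-110866368) skipping reads were 0 of 14 and 0 of 8 in control and 4 of 28 and 4 of 9 in KCl. In an exon of Zfp81 (chr17:33336722-33336848) they were 0 of 52 and 0 of 58 against 2 of 48 and 2 of 51, and in Zfp658 (chr7:43564614-43564843) 0 of 21 and 0 of 60 against 1 of 37 and 3 of 35. The events of Zfp839, Zfp81 and Zfp658 met the minimum mean of 1 skipping read through the KCl libraries alone. Their separation therefore follows in part from that filter.

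The 96-base exon of Zfp618 (chr4:63086531-63086626), a partner of the methylcytosine reader Uhrf2, had inclusion shares of 70.0% and 80.0% in control and 30.0% and 45.5% in KCl, from 5 to 11 reads per library (edgeR adjusted p = 0.710). Zfp433 (chr10:81718469-81718616) had 40.0% and 22.2% against 0% and 11.1%, from 5 to 12 reads per library (edgeR adjusted p = 0.713). In both genes the control and KCl shares did not overlap, and neither passed the test. The Zfp433 event met the minimum mean of 1 inclusion read mainly through the control libraries. Its separation therefore follows in part from that filter.

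**Figure D3:**
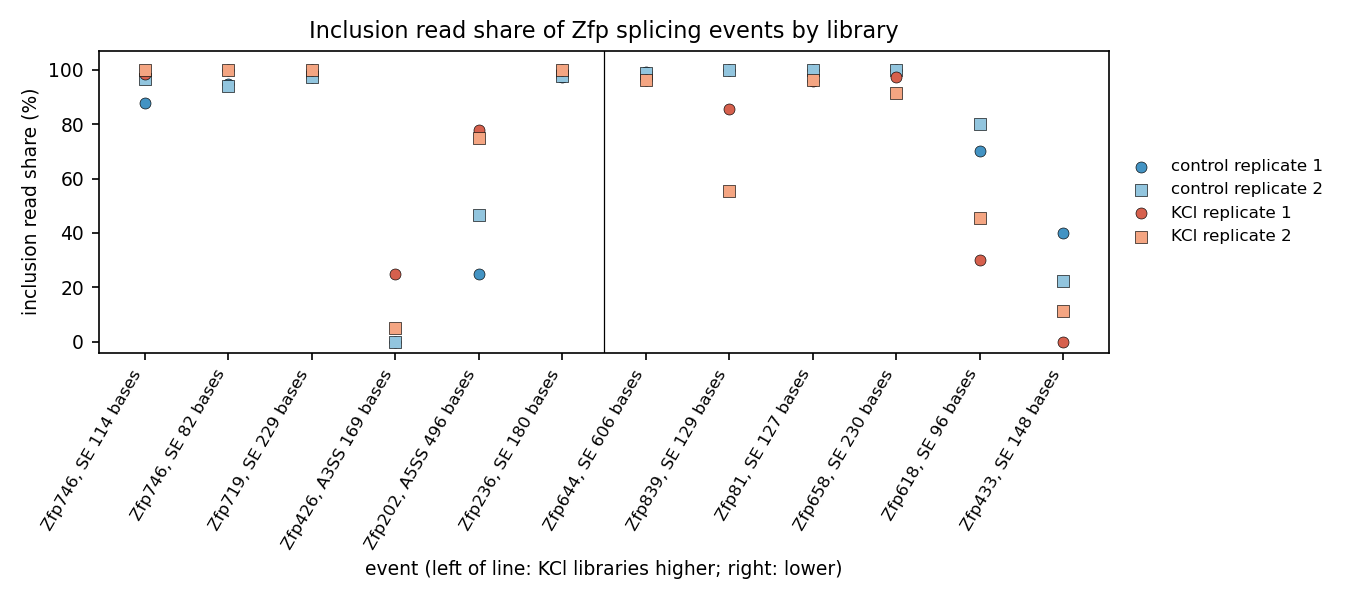
Inclusion read share in each of the 4 RNA libraries for the 12 member events with groups that do not overlap and the smallest unadjusted p in each direction. Points of equal value lie on top of each other. Zfp236, Zfp426, Zfp658, Zfp719, Zfp81, Zfp839 and the shorter exon of Zfp746 had reads of the rarer form in a single group only. The largest separations (Zfp202, Zfp839, Zfp618) are in events of few reads, and most other events lie near 100% in all libraries.

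Among the member events tested for splicing, those with most reads showed little skipping. Cassette or splice site events of Zfp865 (chr7:5028991-5032207), Zfp609 (chr9:65794622-65795495), Zfp326 (chr5:105886317-105888839) and Zfp523 (chr17:28201261-28202348) had inclusion shares of 98.2% or more in every library. Zfp609 is a partner of the cohesin loader Nipbl in cortical progenitors, and Zfp326 belongs to a complex that couples RNA polymerase II to splicing. The exception was a 93-base exon of Zfp207 (chr11:80393084-80393176), a spindle protein that binds Bub3. Its share was 79.2% and 85.3% in control and 70.4% and 77.9% in KCl, with 183, 758, 140 and 638 inclusion reads. The log2 odds were -0.70 (SE 0.65, edgeR adjusted p = 0.867). Its control and KCl shares were separate by a margin smaller than the gap between the replicates.

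Levels were compared first per event, by the reads of both forms. edgeR called 0 of 205 member events and 0% of all 11814, and DESeq2 and limma called 0 members, while DESeq2 called 101 events over all. The edgeR unadjusted p was under 0.05 in 7 member events, 6 higher and 1 lower in KCl, against 4.08% and 6.85% of all events. The 7 lie in Zfp783 (2 events), Zfp703, Zfp677, Zfp867, Zfp516 and Zfp239. The mean was under 10 reads in 28 of the 205 events, and over the other 177 edgeR also called 0, with 4 at an unadjusted p under 0.05. With a block for the replicate number, edgeR called 4 member events and 1359 events over all.

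Each gene was then represented by its best-covered event. edgeR called 0 of 122 members and 0 of 6114 genes (0%), and DESeq2 and limma called 0 members, while DESeq2 called 70 genes over all. The unadjusted p was under 0.05 in 5 members higher in KCl and 1 lower, against 4.94% and 7.33% of all genes. The median log2 difference was 0.06 in members and 0.04 in all genes. Values were above 0 in 65 members and below 0 in 57 (52.5% of all genes were above 0). The groups did not overlap with KCl higher in 26 members and with KCl lower in 16 (22.1% and 21.2% of all genes, 43.3% together). With a block for the replicate number, edgeR called 5 members (Zfp239, Zfp516, Zfp703, Zfp783 and Zfp867) and 1259 genes over all. The labels do not say that a number marks a shared culture, so the adjusted p values below are without this block. Levels are in CPM of the reads on best-covered events, after TMM (trimmed mean of M values) scaling. They are not per length and are compared only between libraries of the same gene.

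Zfp703, a corepressor of the NET family, had 27.9 and 12.3 CPM in control replicates 1 and 2 and 108 and 49.3 CPM in KCl replicates 1 and 2 (40, 23, 158 and 87 reads). Both KCl values lay above both control values, and the log2 difference was 1.97 (SE 0.62, edgeR adjusted p = 0.352). Without KCl replicate 2, which leaves 1 KCl library, the log2 difference of Zfp703 was 2.36. Zfp516, a cofactor known from brown fat, had 156 and 153 CPM in control and 385 and 242 in KCl (log2 difference 1.02, SE 0.42, edgeR adjusted p = 0.402).

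Zfp783 had 1 and 2 reads in control and 13 and 8 in KCl (log2 difference 2.78, SE 0.79), and Zfp677 4 and 4 against 17 and 10 (1.78, SE 0.68). Zfp867 had 8.36 and 14.0 CPM against 27.4 and 25.5 (1.23, SE 0.52), and Zfp449 15.3 and 16.6 against 41.1 and 28.3 (1.11, SE 0.49). Zfp120 and Zfp526 followed at 0.97 (SE 0.57) and 1.25 (SE 0.74). The edgeR adjusted p of these 6 genes ran from 0.352 to 0.553. Of the 8 members with higher values, Zfp120, Zfp677 and Zfp867 are among the 28 with H3K9me3 at 2 or more in the home cage hippocampus, and Zfp449 is among the 5 lowest. Of the 8 with lower values, Zfp758, Zfp810 and Zfp946 are among the 28, so the number is 3 in each direction among these named genes. Of all 122 measured members, 24 are at 2 or more. Over all members whose groups do not overlap, those at 2 or more were 4 of 26 with KCl higher and 6 of 16 with KCl lower.

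Zfp239 had the largest difference in the lower direction, with 20.2 and 16.6 CPM in control and 2.74 and 5.10 in KCl (29, 31, 4 and 9 reads). The log2 difference was -2.19 (SE 0.59, edgeR adjusted p = 0.352). Zfp946 had 19 and 12 reads in control and 7 and 3 in KCl (-1.59, SE 0.73), and Zfp940, by a retained intron, 20.2 and 17.2 against 5.48 and 11.3 (-1.13, SE 0.57). Zfp57 had 55.7 and 78.3 CPM in control and 26.7 and 54.9 in KCl (-0.71, SE 0.51), where the nearest control and KCl values almost touch. The other 4 were Zfp758 (-0.84, SE 0.66), Zfp810 (-0.73, SE 0.58), Zfp821 (-0.62, SE 0.43) and Zfp532 (-0.57, SE 0.45). The nearest control and KCl values almost touch in Zfp758 (4.88 and 4.79 CPM) and Zfp810 (10.7 and 10.3 CPM) too. Zfp758 had 7 and 14 reads in control and 7 and 4 in KCl. The edgeR adjusted p of the 7 genes other than Zfp239 was between 0.429 and 0.701.

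**Figure D4:**
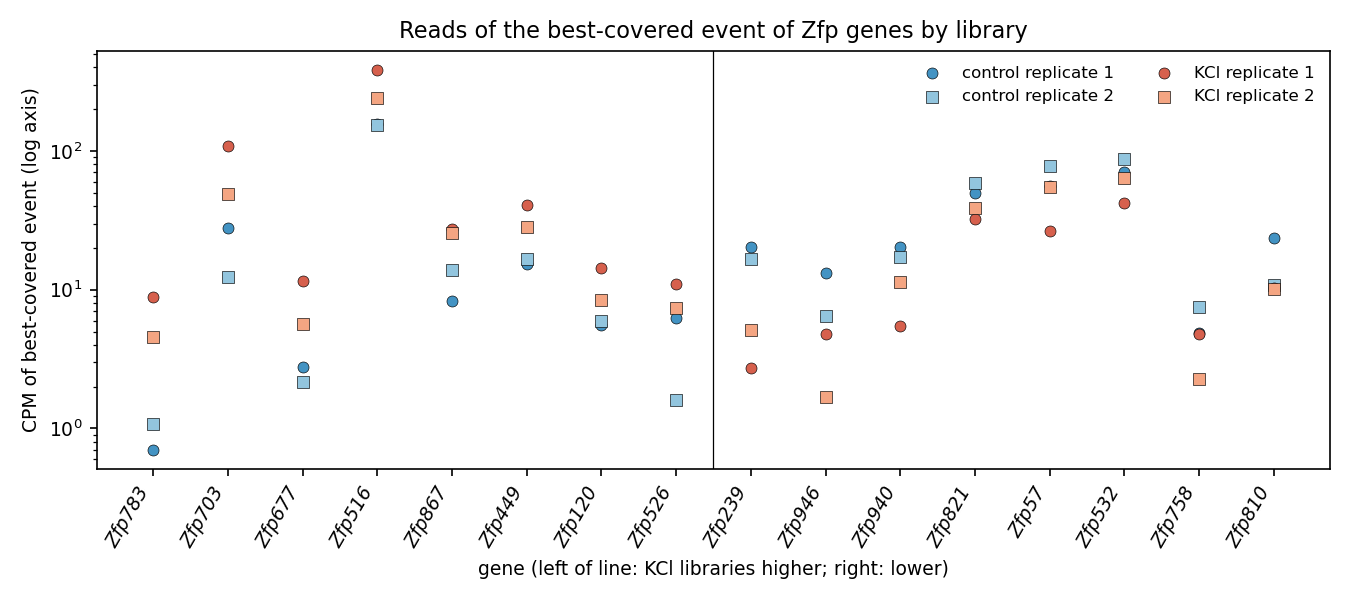
CPM of the best-covered event (log axis) in the 4 RNA libraries for the 16 members with groups that do not overlap and the smallest unadjusted p in each direction. Zfp703 and Zfp783 on the left and Zfp239 on the right show the widest gaps between control and KCl libraries. None passed the adjusted threshold in edgeR on all 4 libraries without a block for the replicate number.

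Zfp644, Zfp638, Zfp326, Zfp865 and Zfp609 had the most reads. Zfp644 had 624 and 1134 CPM in control and 517 and 969 in KCl, Zfp638, a nuclear RNA-binding protein, 478 and 755 against 420 and 714, and Zfp326 231 and 356 against 339 and 399. In these 3 the groups overlap, and replicate 2 was above replicate 1 in both groups. Zfp865 had 600 and 727 against 760 and 764 CPM (log2 difference 0.20, SE 0.37), and Zfp609 286 and 268 against 488 and 314 (0.53, SE 0.41). The same gap between replicate numbers was wider in Zfp207 (161 and 477 against 136 and 464 CPM), Zfp335, a neural progenitor factor (8.36 and 35.4 against 6.85 and 31.1), and Zfp462 (30.7 and 189 against 60.2 and 225). In these 3 genes the replicate numbers lie further apart than the groups.

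Among the other members with a known role, the log2 difference was 0.34 (SE 0.49) for Zfp932, -0.43 (SE 0.47) for the double-stranded RNA-binding protein Zfp346, -0.12 (SE 0.40) for Zfp148 and 0.31 (SE 0.60) for Zfp281. It was -0.13 (SE 0.60) for Zfp384, 0.35 (SE 0.45) for Zfp410, an activator of Chd4, and 0.61 (SE 0.62) for Zfp521, a factor of neural differentiation. Control and KCl values overlap in all 7. By list, 13 of the 20 Zfp transcription factors without a KRAB domain were measured, with a median of 0.31, 8 above and 5 below 0, 0 called and 1 with an unadjusted p under 0.05. Of the 12 RNA-binding Zfp genes 5 were measured, with a median of -0.09, 2 above and 3 below 0, 0 called and 0 with an unadjusted p under 0.05 in edgeR. In DESeq2 and limma no member was called, so none of these lists holds a call there either.

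The list for the KRAB corepressor and H3K9me3 pathway held no call in edgeR without a replicate block. It holds 34 names for 33 genes, as Fam208a and Tasor are the same gene. Of these genes 25 were measured, with a median log2 difference of -0.00, 12 above and 13 below 0, 0 called and 0 with an unadjusted p under 0.05 in edgeR. Trim28 had 68.3 and 102 CPM in control and 98.6 and 128 in KCl, and Setdb1 64.1 and 117 against 58.9 and 105, with groups that overlap in both. Chd4 had 297 and 240 against 563 and 293, and its groups overlap too. Over the list the groups did not overlap with KCl higher in 4 genes and with KCl lower in 4 (22.1% and 21.2% of all genes). The smallest p per direction fell on Uhrf1 (log2 difference 1.13, SE 0.48, edgeR adjusted p = 0.405) and Chd3 (-1.10, SE 0.55, edgeR adjusted p = 0.459). In hippocampus, 33 genes of the pathway had a median H3K9me3 of 0.727, 0.768 and 0.834 times the background, and none reached 2 in any library.

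Setting the readouts side by side, the 24 measured members with H3K9me3 at 2 or more had a median log2 KCl difference of -0.08, and the 98 measured members under 2 had 0.08. Over 122 members the rank correlation of home cage H3K9me3 with the log2 KCl difference was -0.14. This is a description across genes that share the same 4 libraries, and the readouts come from different strains, ages and tissues.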

How the data were processed

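RNA of 4 neuron libraries (2 control, 2 KCl) and H3K9me3 ChIP of 3 hippocampus libraries (1 home cage, 2 enriched cage) were used, grouped by their titles. The RNA tables hold, per the file headers, raw read counts (whole numbers) for both forms, inclusion and skipping, of events of 5 types. They also hold the p-value and FDR deposited by the authors, who compared KCl with control inside each replicate number. In the table of control replicate 1, 2 count columns repeat the KCl library and were not used. The ChIP files hold a coverage signal deposited by the authors, whose values are whole multiples of 1 step (tolerance 0.01). The submitters' processing notes name CASAVA 1.7, BWA 0.7.12, MACS2, TopHat2 and mm10, without roles. Event counting, read filters and use of strand: not given in the sources used here.

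Starts of events were shifted to count from 1. For splicing, the quasi-likelihood test of edgeR 4.0.16 was run in R 4.3.3 on the counts of both forms, with terms for library, form and form in KCl. Event and gene levels were tested with edgeR on summed reads with TMM and a minimum mean of 1 read. Fragments were recovered from the coverage (6187162, 13008562 and 8058236 in home cage, enriched replicate 1 and enriched replicate 2, of 285, 207 and 238 bases), with at most 2 kept per start. They were counted over RefSeq gene models of GRCm38.p6, the build mm10, on the numbered chromosomes, X and Y, and tested with limma 3.58.1 and voom weights. Scaling factors were median ratios over 10 kb windows in the lower 75% of signal. All p-values were adjusted by Benjamini-Hochberg over all events, genes or gene models, with a threshold of 0.05. The tests were also run on simulated data with planted changes and no effect of the replicate number. Those runs do not show which changes the tests would miss in these libraries.

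The members and gene lists were chosen with earlier results of these data known. Genes were named by a rule: of members whose groups do not overlap, 6 events or 8 genes per direction with the smallest p, and the 5 with most reads. For H3K9me3 they are the 10 highest, the 5 lowest and, with a mean of at least 50 fragments and both enriched libraries on 1 side, the 5 per direction with the smallest p. Members with a known role (15 of 31 listed) were added. Alternatives were a replicate block, limma, DESeq2 1.42.0, other filters and scalings, events of equal coordinates summed, and leaving out each library. A grouping by number of fingers was not run. Python 3.11.15 was used with numba 0.67.0, matplotlib 3.10.9, pandas 2.3.3, scipy 1.17.1 and numpy 2.4.6.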

Additional observations from a re-analysis of the deposited data

How the results depend on the processing

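The counts of members called for splicing (0) and for H3K9me3 in the enriched cage (0) were the same under every alternative run, and the median over members of each member's middle library value was 0.894 times the background, and 0.865 to 0.918 under the other settings. The medians of single libraries ran from 0.820 (enriched replicate 1, library mean as background) to 1.01 (enriched replicate 2, no limit on duplicates). For splicing, edgeR with a block for the replicate number called 0 of 173 member events and 167 of 10088 events over all. Member calls for levels were the exception. With a block for the replicate number, edgeR called 4 member events (Zfp239, Zfp385a, Zfp516 and Zfp703) and 5 member genes (Zfp239, Zfp516, Zfp703, Zfp783 and Zfp867), against 0 without it, and 1359 events and 1259 genes over all. Leaving out 1 library each gave 0 to 1 calls for both, the 1 being Zfp703 without KCl replicate 2, where edgeR called 434 events and 302 genes over all. Deviations of libraries with the same number correlated at 0.631 for events, 0.623 for genes and 0.0573 for splicing, but the labels do not say that a number marks a shared culture, and there are only 2 pairs.

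Directions that turned, all in genes past no threshold, did so when a library was left out. For gene levels the log2 difference then ranged from -0.83 to 0.25 for Zfp644, -0.62 to 0.25 for Zfp638, -1.29 to 0.90 for Zfp207, -0.35 to 1.05 for Zfp281 and -0.77 to 0.70 for Zfp384. It ranged from -1.75 to 1.19 for Zfp335, -0.93 to 2.22 for Zfp462, -0.10 to 0.62 for Zfp932, -0.065 to 0.65 for Zfp410 and -0.076 to 1.04 for Zfp521. For splicing the log2 odds ranged from -2.94 to 0.27 for Zfp326, -1.33 to 1.24 for Zfp609 and -0.13 to 4.64 for Zfp523. For H3K9me3 the difference ranged from -0.058 to 0.046 for Zfp57. The cause was not tested. Leaving out an enriched library leaves 1 library against 1, which gives values and no test. Every event had a mean of at least 1 read, so removing that filter changed no level. Member events had a median of 37.2 reads per library, against 72.8 for all events.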
